A study of Bos taurus with 16 samples.

Results

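SLC7A5 and 9 other genes that encode amino acid transporters of the plasma membrane were followed in 2 tissues of dairy cows, the white blood cells (WBC) of peripheral blood and the endometrium. The members were every probe, other than control spots, to which the array design gave the gene name SLC7A5, SLC3A2, SLC7A1, SLC7A7, SLC7A8, SLC7A11, SLC1A1, SLC1A5, SLC38A1 or SLC38A2. The rule found 19 probes of 46615 on the array and 10 genes of 26738 named genes and transcripts. SLC7A5 was chosen by its endometrial signal, which was lower in cows that had subclinical endometritis (SCE) than in healthy cows, so values of that comparison are given below as a description, with no test.

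Cells take up amino acids through families of carriers with overlapping substrates. SLC7A5 (LAT1) exchanges intracellular glutamine for leucine and other large neutral amino acids, and it reaches the cell surface bound to the heavy chain SLC3A2 (CD98). SLC7A7, SLC7A8 and SLC7A11 use the same heavy chain for cationic and neutral amino acids, for neutral amino acids, and for cystine in exchange for glutamate. SLC7A1 carries arginine and lysine without a heavy chain, SLC1A1 takes up glutamate and aspartate, and SLC1A5, SLC38A1 and SLC38A2 carry glutamine and other neutral amino acids with sodium. Leucine that enters the cell is sensed by the kinase complex mTORC1, and in ruminants amino acids secreted into the uterine lumen nourish the embryo before implantation.

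RNA of 16 samples was hybridised to one-colour arrays, 1 array per sample. The 8 donors were adult multiparous Holstein-Friesian cows, 4 healthy (841, 850, 877 and 883) and 4 with SCE (718, 833, 836 and 846), and each cow gave WBC from a PAXgene blood tube and an endometrial biopsy at 45 to 55 days post-partum. SCE is an inflammation of the endometrium without clinical signs and was diagnosed by histology. By the paper the 4 healthy cows were evenly divided between the follicular and the luteal phase. Of the 4 SCE cows 1 was in the follicular phase and the rest were in the luteal phase. The phase of each cow was not matched to its arrays here.

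The level of a probe is the log2 of its median spot signal after quantile normalization over the 16 arrays, and levels are compared between samples for 1 probe, never between probes. The tissues were hybridised on separate slides, 1 for the 8 WBC samples and 1 for the 8 biopsies, and tissue cannot be told apart from slide. Per array, 64.7% to 79.8% of spots were well above background. The endometrium array of cow 833 stood apart, its values correlating at a median r of 0.940 with those of the same tissue against 0.973 to 0.979 for the other 7, and in WBC the array of cow 833 had the lowest value as well, 0.972 against 0.984 to 0.989. Among defining markers, EPCAM averaged 12.71 in healthy endometrium and 6.53 in healthy WBC, and CSF3R 6.37 and 14.23, although KRT8, KRT19 and CLDN4 of the epithelial list were lower in endometrium. Both tissues are mixtures of cells, and fewer cells of a type and less RNA per cell cannot be told apart.

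The probes were 60 bases long and 5 of the genes had more than 1 of them. Their place along the transcript mattered to several results, and each is called by the base of the transcript at which the array design places its start. Of the 10 probes that passed the test between tissues, sequences are shown for the 5 that lie nearest the start of their transcripts; the array design does not mark exons or untranslated regions. Coordinates are those of the design, in build HGSC Btau_3.1. The probe of SLC7A5 at base 919 lay at chr18:12570135-12570194 on the minus strand, that of SLC7A1 at base 1423 at chr12:30878360-30878419 on the plus strand, that of SLC7A7 at base 313 at chr10:22295329-22295388 on the plus strand, that of SLC38A1 at base 461 at chr5:37190090-37191569 on the plus strand and that of SLC1A1 at base 1143 at chr8:42136999-42143179 on the minus strand. The last 2 spans are longer than the probe, which crosses an intron there. The probes read, 5′ to 3′:
SLC7A5 base 919: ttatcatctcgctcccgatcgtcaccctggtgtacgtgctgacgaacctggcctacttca
SLC7A1 base 1423: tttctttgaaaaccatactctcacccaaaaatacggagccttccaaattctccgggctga
SLC7A7 base 313: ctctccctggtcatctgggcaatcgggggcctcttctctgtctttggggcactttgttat
SLC38A1 base 461: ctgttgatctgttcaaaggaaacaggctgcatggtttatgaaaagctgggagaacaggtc
SLC1A1 base 1143: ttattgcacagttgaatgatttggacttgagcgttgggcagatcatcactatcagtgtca

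**Figure D1:**
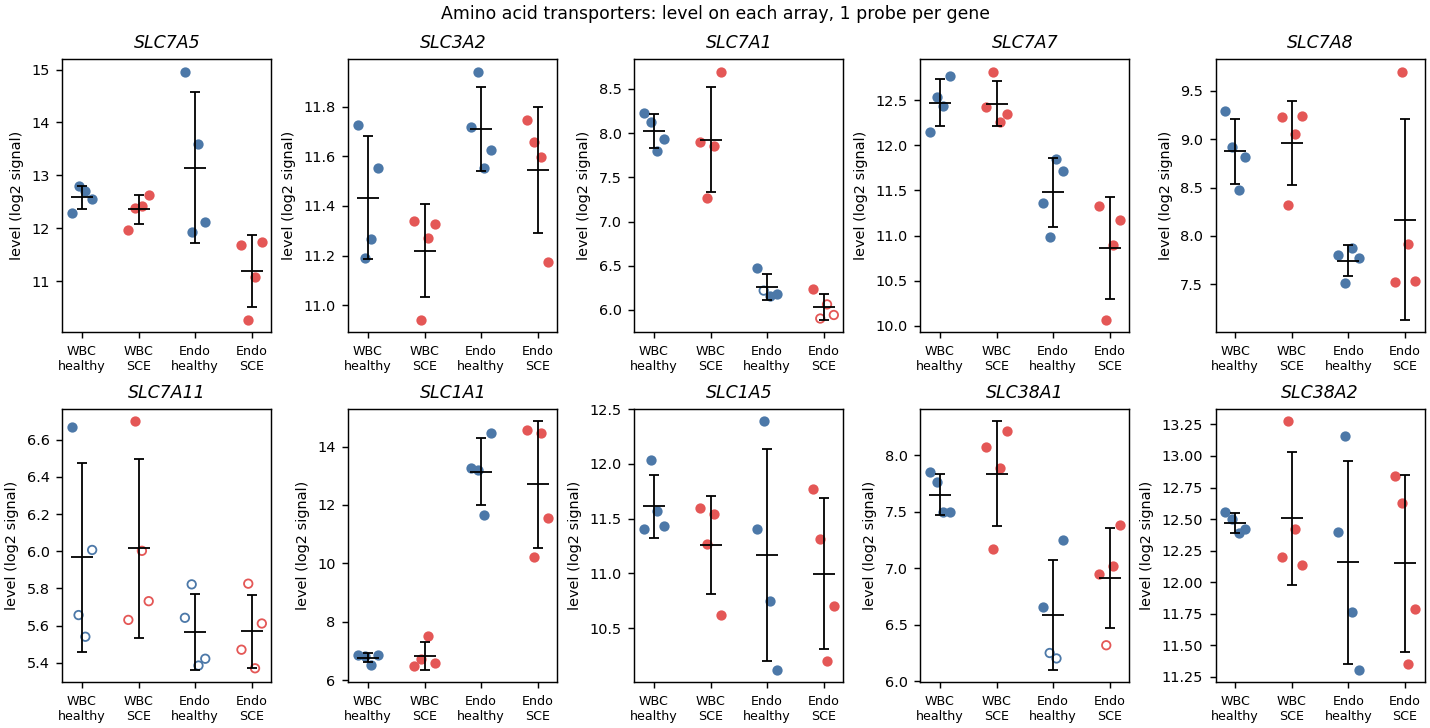
Level (log2 signal) of the brightest probe of each of the 10 genes on all 16 arrays, 4 per group; filled points were well above background, open points were not, and black bars show the mean and SD. SLC1A1 is at 10.21 to 14.57 in endometrium and at 6.47 to 7.50 in WBC, and the 4 healthy cows' endometrial SLC7A5 lies at 11.93 to 14.96, above the SCE cows.

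In endometrium SLC7A5, the leucine carrier, was lower in SCE cows on its bright probe. At base 3958 the level was 14.96, 11.93, 13.59 and 12.11 in healthy cows 841, 850, 877 and 883. In SCE cows 718, 833, 836 and 846 it was 11.68, 10.27, 11.08 and 11.74. Every SCE cow lay below every healthy cow, but the nearest pair, cow 850 and cow 846, differed by only 0.19, and healthy cows 841 and 877 were the highest of all. The means were 13.15 ± 1.42 and 11.19 ± 0.68 (SD, n = 4 each), a difference of -1.96 (SE 0.68) or 3.88-fold lower in SCE. Leaving out cow 841 brought the difference to -1.35.

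The other probes of SLC7A5 did not all tell the same. At base 3320 the difference was -1.31 (SE 0.52). The healthy cows had levels of 10.68, 8.14, 9.30 and 8.44 and the SCE cows 7.96, 7.31, 7.93 and 8.13, so the groups met at 8.14 and 8.13. This probe placed the 8 endometria in the same order as that at base 3958 (Pearson r = 0.99, Spearman rho = 1, 8 arrays). At base 919 the difference was -0.11 (SE 0.24), the groups overlapped, and 3 of the 8 endometrium arrays were not well above background. Over the 8 endometria that probe had r = 0.30 with the one at base 3958.

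Among the members, 3 probes of 2 genes had no overlap between SCE and healthy endometrium, while 1.63% of all probes had none; the choice of SLC7A5 on this contrast fixed it for that gene, and nothing is read from the count. The third was the dim probe of SLC3A2, the heavy chain, at base 702, at 7.07 to 7.62 in healthy and 6.83 to 7.03 in SCE cows. The brighter SLC3A2 probe at base 1979 overlapped, at 11.55 to 11.94 and 11.18 to 11.75. Limma's TREAT tests for a difference beyond 1.2-fold. By it, 0% of all 46605 probes tested in endometrium passed after Benjamini-Hochberg adjustment and 218, or 0.468%, unadjusted. The paper, which also used TREAT on these arrays, does report genes that differed between SCE and healthy cows in each tissue. No test is given for the members. By representative probe the other 9 genes differed by -0.61 (SLC7A7) to 0.43 (SLC7A8), the latter turning to -0.085 without cow 833. The median of the 10 was -0.17 against 0.01 over all genes. It includes SLC7A5, which was chosen on this contrast, and nothing is read from it.

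**Figure D2:**
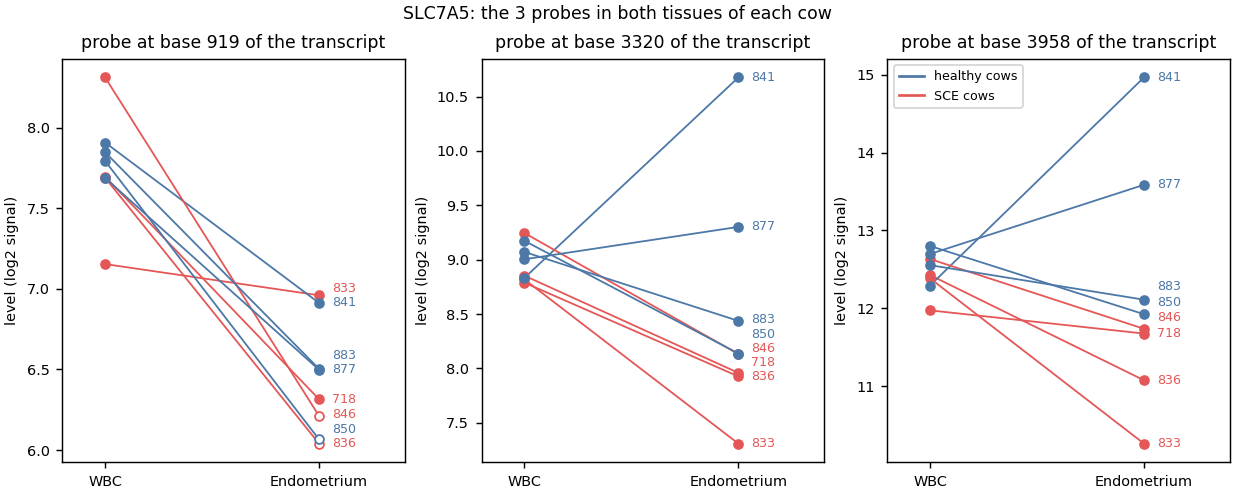
Level (log2 signal) of the 3 SLC7A5 probes in WBC and endometrium, a line per cow, with cow numbers at the endometrium value; open points were not well above background and each panel has its own scale. At bases 3320 and 3958 healthy cows 841 and 877 rise from WBC to endometrium while the other 6 fall, and at base 919 all 8 fall.

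In WBC, SLC7A5 did not pass the test between SCE and healthy cows. The level at base 3958 was 12.29, 12.80, 12.70 and 12.56 in the healthy cows and 11.98, 12.39, 12.43 and 12.63 in the SCE cows. The groups overlapped, and the difference of -0.23 (SE 0.17, 95% interval -0.62 to 0.16) gave a limma TREAT adjusted p of 1 and a two-sided exact permutation p of 0.257. The whole range over 8 cows was 0.83 in WBC and 4.70 in endometrium. The endometrial range is made of the values by which the gene was chosen. In WBC the median range of the 16641 genes well above background was also 0.83.

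No member passed the test between SCE and healthy cows in WBC. Of 19 probes, 0 passed TREAT adjusted (0% of all probes) and 0 passed unadjusted (0.131% of all), and 0 were without overlap (1.3% of all). The representative probe of a gene, the brightest on average, had a difference between -0.35 for SLC1A5 and 0.19 for SLC38A1. The median over the 10 genes was 0.01 and over all genes -0.01. SLC1A5, the glutamine carrier, had the largest difference, at 11.40, 12.03, 11.57 and 11.43 in healthy cows and 11.59, 11.27, 11.54 and 10.62 in SCE cows, which overlapped (SE 0.24, 95% interval -0.88 to 0.17, exact permutation p = 0.286; the smallest p that 4 against 4 cows allow is 0.0286).

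WBC and endometrium differed at 10 of the 19 probes after adjustment, which is 53.9% of all probes tested as well, 3 higher and 7 lower in endometrium (22.7% and 31.2% of all). The tissues did not overlap at 6 of the 19 probes (37% of all). By their representative probe 5 of the 10 genes passed, 1 higher and 4 lower (23.8% and 31.5% of all genes), against 55.3% of all genes in either direction, and 7 of 10 passed by at least 1 probe, against 61.2%. The median of all probes was itself shifted by -0.16, and the differences below include that shift. Healthy cows alone gave 10 probes past the test (46.5% of all) and SCE cows alone 9 (45.3%).

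SLC1A1, the glutamate and aspartate carrier, had the largest tissue difference among the members. At base 3473 the endometrial levels were 13.25, 13.20, 11.65 and 14.47 in the healthy cows and 14.57, 10.21, 14.47 and 11.55 in SCE cows 718, 833, 836 and 846. In WBC the same probe gave 6.85, 6.84, 6.53 and 6.84 in healthy and 6.47, 6.73, 7.50 and 6.60 in SCE cows. Endometrium was higher in 8 of 8 cows without overlap, by 6.13 (SE 0.56, 69.9-fold; 6.28 relative to the median of all probes; limma TREAT adjusted p = 1.39e-07; exact sign-flip permutation p = 0.0078, the smallest that 8 cows allow). At base 1143 WBC was not well above background on any array, and endometrium was at least 4.84-fold higher in healthy cows. For SCE cows the same calculation gave 3.76-fold, which is not a lower bound. The endometrium of SCE cow 833, at 5.72, was not well above background either and lay within the WBC range of 5.25 to 5.78. In that cow the tissues differed by 0.10. Over healthy and SCE cows together the measured difference was 2.27 (SE 0.40, limma TREAT adjusted p = 0.000246), and the tissues overlapped.

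Within endometrium SLC1A1 spread over 4.36, a 20.5-fold range, and 98.7% of genes well above background varied less. Its probes ranked the cows alike (r = 0.98, rho = 0.88, 8 arrays), with cows 718, 836 and 883 at the top and cow 833 at the bottom. The mean level of 6 epithelial markers (EPCAM, KRT8, KRT18, KRT19, CDH1 and CLDN4) was 12.10, 12.24 and 12.13 in those 3 cows, 11.14 in cow 833 and 10.57 to 11.90 in the others. Over the 8 arrays r with SLC1A1 was 0.82, and 0.89 without cow 833; this list was picked for SLC1A1 after the values were seen. The summed linear signal of these markers did not single out the same cows, at 31304 to 54356 in healthy and 31684 to 77293 in SCE cows, with cow 833 at the top. The part of epithelial content in the SLC1A1 level was not tested. SCE and healthy cows overlapped, with means of 12.70 ± 2.17 and 13.14 ± 1.15.

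**Figure D3:**
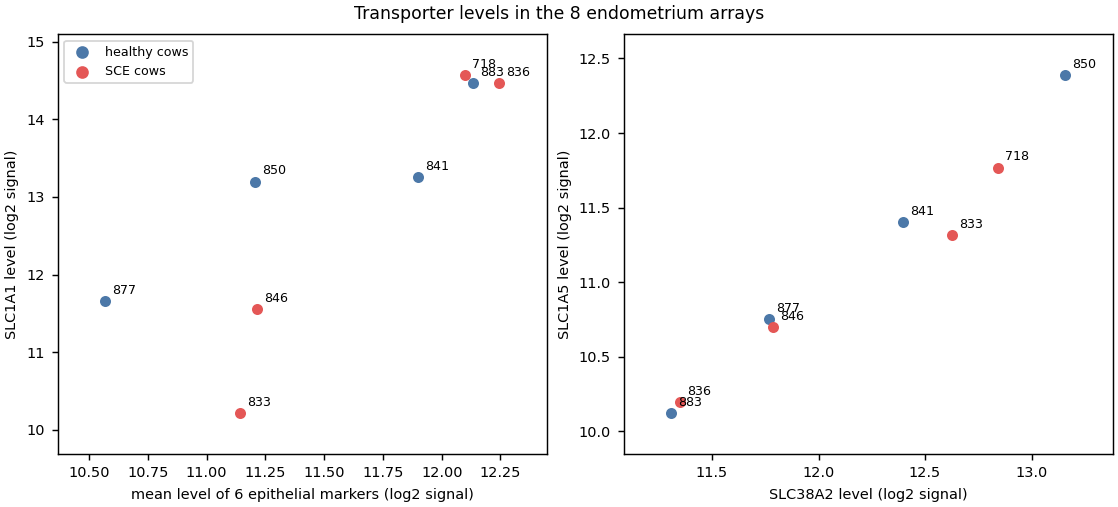
Levels (log2 signal) on the 8 endometrium arrays, points labelled by cow: SLC1A1 at base 3473 against the mean of 6 epithelial markers (left), and SLC1A5 against SLC38A2 at base 3593 (right). Cows 718, 836 and 883 are highest for SLC1A1 and for the epithelial markers, and SLC1A5 and SLC38A2 place the cows in nearly the same order (r = 0.98).

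The probes of SLC7A1, SLC7A5, SLC7A7 and SLC7A8 that passed the test were lower in endometrium than in WBC. SLC7A7, the carrier of cationic and neutral amino acids known from leucocytes and gut, was at 11.29 to 11.78 in WBC and 8.99 to 10.31 in endometrium at base 313. It was lower in 8 of 8 cows without overlap, by -2.14 (SE 0.16, limma TREAT adjusted p = 2.53e-08), and at base 1971 by -1.30 (SE 0.18, limma TREAT adjusted p = 7.66e-05). The latter call was lost when each tissue was normalized on its own (-0.51). The probes of SLC7A7 did not follow each other over the endometria (r = -0.22), and their SCE minus healthy differences there were 0.41 at base 313 and -0.61 at base 1971, both with overlapping groups.

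SLC7A1, the arginine and lysine carrier, was at 8.23, 8.13, 7.80 and 7.93 in WBC of healthy and 7.90, 7.26, 7.85 and 8.70 in WBC of SCE cows. Endometrium gave 5.90 to 6.47, well above background on 3 of 4 healthy and 1 of 4 SCE arrays, so that its level there is uncertain. The measured difference was -1.83 (SE 0.16, limma TREAT adjusted p = 2.18e-07), with no overlap between tissues.

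SLC7A8, the light chain for neutral amino acids, had a less certain difference. Endometrial levels were 7.51 to 7.92 in 7 cows and 9.70 in SCE cow 833, whose array stood apart as given above; WBC levels were 8.32 to 9.29. The mean difference of -0.96 (SE 0.27) had a limma TREAT adjusted p of 0.0209. With the cow as a block the p became 0.0577, and the call was also lost without cow 718, 836, 841, 846 or 850 and with each tissue normalized on its own, which left -0.05. Without cow 833 the difference was -1.33. The summed linear signal of 4 endothelial markers was 60673 in the endometrium of cow 833 and 6150 to 13443 in the other 7, all 4 being well above background in every endometrium. This array also had the highest erythroid sum (95075 against 21751 to 36907) and the highest epithelial sum (77293). Over the 8 endometria r of SLC7A8 with the mean marker level was 0.91 for endothelium, 0.92 for erythroid cells and -0.25 for epithelium. Without cow 833 these were -0.09, 0.47 and 0.11. The part of cell content in the SLC7A8 level was not tested. These lists too were set beside the gene after the values were seen.

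SLC7A5 itself gave different answers by probe. At base 919 endometrium was lower than WBC in 8 of 8 cows, by -1.32 (SE 0.17, limma TREAT adjusted p = 3.27e-05), a call that normalization within each tissue took away (-0.62, limma TREAT adjusted p = 0.0585). At base 3958 the difference was -0.30 (SE 0.36, limma TREAT adjusted p = 0.698), and its sign turned with normalization within each tissue (0.41). There healthy cows 841 and 877 were higher in endometrium by 2.67 and 0.89, and the other 6 cows were lower, by -0.30 to -2.12. SLC3A2 at base 1979 stayed within 10.94 to 11.94 on all 16 arrays, with a tissue difference of 0.30 (SE 0.12, limma TREAT adjusted p = 0.530), which became 1.16 and passed the test with each tissue normalized on its own. SLC7A11, the cystine carrier, was well above background on 2 arrays, the WBC of cows 841 and 833, and on none of the 8 endometrium arrays.

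**Figure D4:**
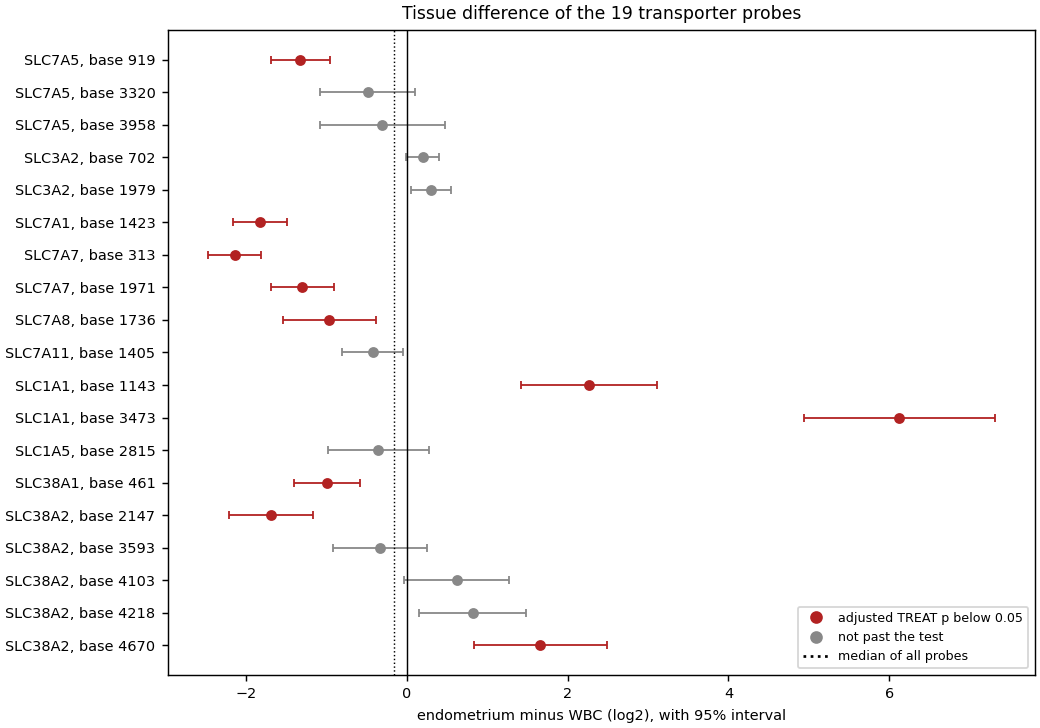
Endometrium minus WBC (log2) for the 19 probes, with 95% intervals of the limma fit of 16 arrays; red marks a limma TREAT adjusted p below 0.05 and the dotted line the median of all probes (-0.16). SLC1A1 lies far to the right, the SLC7 probes that passed lie to the left, and the SLC38A2 probes run from left to right with their position; grey probes of SLC7A5, SLC1A5 and SLC38A2 left of 0 change side when each tissue is normalized on its own.

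SLC38A2, a sodium-coupled carrier of neutral amino acids that cells raise when amino acids are scarce, had 5 probes whose tissue difference ran in order of their position. It was -1.69 (SE 0.25, limma TREAT adjusted p = 6.34e-05) at base 2147, -0.33 at base 3593, 0.62 at base 4103, 0.82 at base 4218 and 1.66 (SE 0.39, limma TREAT adjusted p = 0.00333) at base 4670. Both ends passed the test, in opposite directions. At base 2147 WBC levels were 12.14 to 12.72 and endometrial levels 9.89 to 11.60, lower in 8 of 8 cows, and at base 4670 endometrium was higher in 8 of 8 cows, by 0.43 to 3.22. A single direction for SLC38A2 between tissues can therefore not be given. With each tissue normalized on its own the probe at base 3593 turned to 0.38 and the ends kept their signs.

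A slope along the transcript was frequent on these arrays. Among 7212 transcripts with probes at least 500 bases apart, the endometrium minus WBC difference was higher at the probe nearest the 3′ end in 70.6%, with a median of 0.49, and in 79.3% of 3250 transcripts whose probes were well above background on all 16 arrays. The step from the first to the last probe was 3.35 for SLC38A2 (95.6% of transcripts had a smaller or equal one), 1.02 for SLC7A5, 0.84 for SLC7A7 and 0.10 for SLC3A2. The array design places the SLC1A1 probes on different transcript records, so SLC1A1 was left out of the steps. Its tissue difference was 2.27 at base 1143, where WBC was not well above background, and 6.13 at base 3473. The part of probe position in the SLC1A1 difference was not tested. The comparison of steps was chosen after the values were seen.

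In WBC the SLC38A2 probes set SCE cow 833 apart. Relative to the median of the 8 WBC arrays, cow 833 was higher by 0.36 at base 2147, 0.85 at base 3593, 1.69 at base 4103, 1.76 at base 4218 and 1.95 at base 4670, where the other 7 cows lay between -0.90 and 0.29. Its level at base 4670 was 12.38 against 9.53 to 10.71 in the others. Without cow 833 the SCE minus healthy difference in WBC at this probe moved from 0.0048 to -0.63, and neither passed TREAT.

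**Figure D5:**
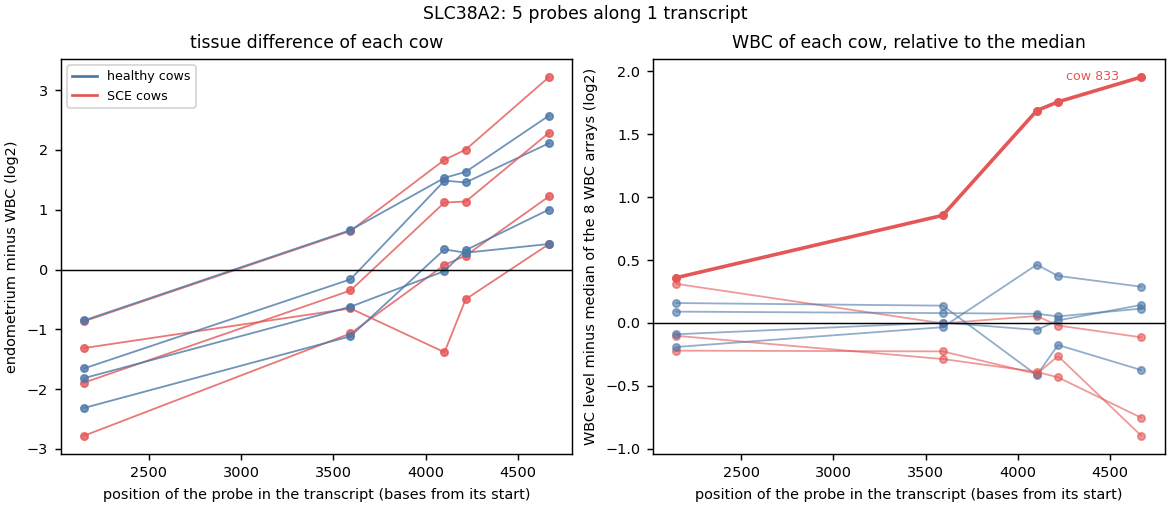
SLC38A2 by position of the probe in the transcript (bases from its start), a line per cow: endometrium minus WBC (left, log2) and the WBC level minus the median of the 8 WBC arrays at that probe (right, log2). The tissue difference goes from -1.69 on average at base 2147 to 1.66 at base 4670, and the WBC of cow 833 departs by 0.36 at base 2147 and 1.95 at base 4670.

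Its relative SLC38A1, which also carries glutamine, was lower in endometrium in 8 of 8 cows on its probe at base 461, at 7.17 to 8.21 in WBC and 6.20 to 7.38 in endometrium, where 3 of 8 arrays were not well above background. The difference was -0.99 (SE 0.19, limma TREAT adjusted p = 0.0023) and fell short of the test with each tissue normalized on its own (-0.25).

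SLC1A5, the sodium-dependent glutamine carrier, did not pass the test between tissues. Endometrial levels were 11.40, 12.39, 10.75 and 10.12 in healthy cows and 11.77, 11.32, 10.20 and 10.70 in SCE cows, a 4.81-fold range. The tissue difference was -0.35 (SE 0.30, limma TREAT adjusted p = 0.569) and turned to 0.53 with each tissue normalized on its own. Over the endometria SLC1A5 followed SLC38A2 at base 3593 (r = 0.98, rho = 0.95), the highest of the 45 pairs of members, whose median r was 0.04. The cows 850 and 718 were highest and 836 and 883 lowest on both genes. In WBC the same pair had r = 0.10, and the pair was picked after its values were seen.

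The genes whose endometrial levels were most like those of SLC7A5 at base 3958, among 16556 well above background on all 8 arrays, were XPO7, GPM6A, RPL26L1, TMEM37 and a transcript named only by its Ensembl identifier, with r from 0.95 to 0.97. XPO7 encodes a nuclear transport receptor, GPM6A a membrane glycoprotein, RPL26L1 a ribosomal protein and TMEM37 a membrane protein. These values share the high level of healthy cow 841, and without it r was 0.89 to 0.94. The genes were picked as the highest r of 16556 over 8 arrays, on the values by which SLC7A5 was chosen. Nothing is read from their r. XPO7 ranged over 9.16 to 9.96 and TMEM37 over 9.27 to 11.66. Of the other members SLC7A1 had the highest r with SLC7A5, 0.81 (rho = 0.62), on a probe that was near background, and 0.57 without cow 841. SLC7A7 had r = 0.67 (rho = 0.83), and 0.89 without cow 841, above SLC7A1. The heavy chain SLC3A2 had r = 0.08.

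Further amino acid carriers were taken from a list of 41 genes, of which 36 were measured. Between SCE and healthy cows 0 of them passed adjusted or unadjusted TREAT in either tissue, with medians of 0.06 in endometrium and 0.04 in WBC against 0.01 and -0.01 over all genes. Among genes that cleared background on each array of at least 1 group, those named by size were in endometrium SLC38A4 at -0.72 (SE 0.42) and SLC6A20 at 0.65 (SE 0.31), and in WBC SLC1A4 at -0.41 (SE 0.13) and SLC36A4 at -0.24 (SE 0.25). SLC38A4 was well above background on 4 of 4 healthy and 2 of 4 SCE endometria, so it entered through the group in which it was higher. Between tissues 5 of 36 were higher and 14 lower in endometrium, where 23.8% and 31.5% of all genes were, with a median of -0.39 against -0.15 over all genes.

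Of these, SLC43A1, a uniporter of large neutral amino acids, was higher in endometrium by 3.83 (SE 0.18, limma TREAT adjusted p = 5.31e-11), and its close relative SLC43A2 was lower by -3.73 (SE 0.19, limma TREAT adjusted p = 2.28e-10). SLC43A1 averaged 12.84 ± 0.37 and 13.03 ± 0.13 in healthy and SCE endometrium and 8.99 ± 0.37 and 9.22 ± 0.52 in WBC. SLC43A2 averaged 9.28 ± 0.69 and 8.81 ± 0.34 in endometrium and 12.88 ± 0.23 and 12.67 ± 0.20 in WBC (n = 4 each). The glutamate carrier SLC1A3 was higher by 2.32 (SE 0.36), in a fit of 11 arrays because its spot was marked as an outlier on the rest, and SLC7A4 by 2.18 (SE 0.53). SLC7A6, which like SLC7A7 pairs with SLC3A2 for cationic and neutral amino acids, was lower by -2.83 (SE 0.18), and the taurine carrier SLC6A6 by -2.29 (SE 0.18).

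The transcription factor ATF4 raises several carriers and the genes of serine synthesis when amino acids run short. Of 26 ATF4 targets and serine synthesis genes, all measured, 0 passed TREAT between SCE and healthy cows in either tissue, adjusted or unadjusted, with medians of -0.01 in endometrium and -0.02 in WBC. The largest endometrial differences had wide errors, ATF3 at 1.68 (SE 1.46) and PSAT1 at -0.85 (SE 1.21). In WBC they were NUPR1 at 0.40 (SE 0.28) and SESN2 at 0.29 (SE 0.17). Between tissues 9 of 26 were higher and 10 lower in endometrium (23.8% and 31.5% of all genes; median 0.12), with NUPR1 at 3.16, DDIT4 (a stress-induced brake on mTORC1) at 2.15 and ALDH18A1 (an enzyme of proline synthesis) at 2.10. The lowest against WBC were TRIB3, a pseudokinase induced by stress, at -3.70, PHGDH, the first enzyme of serine synthesis, at -2.20 and WARS1, the tryptophan transfer RNA ligase, at -2.00.

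Genes by which mTORC1 senses amino acids gave a like account. Of 32 listed and 31 measured genes, 0 passed TREAT between SCE and healthy cows in either tissue, adjusted or unadjusted, with medians of -0.12 and -0.09. CASTOR1, an arginine sensor, differed by 0.67 (SE 0.24) and WDR24 by 0.40 (SE 0.39) in endometrium, and RRAGD by -0.47 (SE 0.20) and FLCN by -0.33 (SE 0.43) in WBC. Between tissues 10 of 31 were higher and 11 lower in endometrium (23.8% and 31.5% of all genes; median -0.05). RHEB, the GTPase that activates mTORC1, was higher by 3.16, EIF4E by 1.71 and RRAGB by 1.66, while TSC1 was lower by -2.11, NPRL3 by -1.42 and DEPDC5 by -1.19, which all act to restrain mTORC1.

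Markers of other cells were set beside the endometrial difference of SLC7A5. Of 6 stromal markers 0 passed adjusted TREAT between SCE and healthy endometrium, and 6 of 6 had lower means in SCE (median -0.43). Their summed linear signal was 181748 to 268913 in healthy and 65453 to 388074 in SCE cows, the lowest being cow 833. Their mean level was 12.92 in cow 833, 13.53 to 14.55 in the other SCE cows and 13.80 to 14.56 in healthy cows. Between tissues 5 of the 6 were higher in endometrium and 1 was lower, DCN, at 12.47 in healthy endometrium and 13.06 in healthy WBC. Leucocyte markers had higher means in SCE in 6 of 6 (median 0.26), with sums of 8783 to 12851 in healthy and 11198 to 15552 in SCE cows. Of them 1 passed unadjusted TREAT, the granulocyte gene S100A8 at 1.60 (SE 0.61). CSF3R of the same list averaged 6.37 in healthy and 6.58 in SCE endometrium, well above background on 3 and 2 of 4 arrays. Endothelial markers had higher means in 4 of 4 (median 0.41), with sums of 6761 to 13443 and 6150 to 60673, the top being cow 833. Of 6 epithelial, 4 smooth muscle, 5 erythroid and 3 platelet markers measured, 0 passed TREAT in endometrium, adjusted or unadjusted, with medians of 0.08, -0.19, 0.06 and 0.08. Of the genes known to vary with the cycle, OXTR was at 12.44, 11.01, 8.65 and 7.18 in healthy cows 841, 850, 877 and 883 and at 11.50, 10.05, 7.27 and 8.85 in SCE cows 718, 833, 836 and 846. PGR was at 9.67 to 11.80 in healthy and 8.18 to 10.65 in SCE cows, ESR1 at 6.47 to 7.41 and 6.60 to 7.85, and SERPINA14 at 6.62 to 10.19 and 6.02 to 11.96, the lowest being cow 833, not well above background, and the highest cow 718. The groups overlapped for all 4 genes. The part of cell content and of cycle phase in the SLC7A5 difference was not tested.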

How the data were processed

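RNA from WBC and endometrium of 8 cows (4 healthy, 4 with SCE) had been labelled with Cy3 and hybridised by the authors to 16 one-colour Agilent arrays. The authors deposited the scanner output of each array, made per the labels with Agilent Feature Extraction 10.10.1.1, and its spot intensity (median signal, not normalized) was used here. Normalized intensity values of the same arrays, which the authors deposited as well in the order of the spots, were used as an alternative.

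Control spots (1319) were not used, nor were spots that the software marked as outliers (190 to 465 on each array), the median signal was taken to log2 and quantile normalized over all 16 arrays with limma 3.58.1 in R 4.3.3, and replicate spots were averaged. The status of the cow was tested in each tissue separately, and the tissue over all 16 arrays, with limma TREAT beyond 1.2-fold, with Benjamini-Hochberg adjustment over all probes. The main tissue fit did not pair the arrays of a cow, so its TREAT p-values take no account of the pairing. With the cow as a block the limma TREAT adjusted p of SLC7A5 at base 919 was 0.00075 in place of 3.27e-05. Single probes were also given a two-sided exact permutation test. The number of arrays limits the precision. A gene with several probes was represented by that with the highest mean signal. Every member was named, with from each further list the 3 largest rises and falls between tissues past the test and the 2 largest differences between SCE and healthy cows, and the 5 genes most correlated with SLC7A5 in endometrium. The members, lists and tests were chosen with earlier results of these data known.

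The fits were tested on simulated data, where 86.5% of added log2 changes of 2 passed the adjusted test in endometrium, 84% in WBC and 99% between tissues, and of added changes of 1 passed 0%, 0% and 58%. Of 46615 simulated probes 200 were changed at each size, far fewer than the 25111 that passed between tissues in the data. The simulated noise of a probe was pooled over the 4 groups and was the same in both tissues. The rates hold for that noise alone, and the rate in endometrium is not based on endometrial noise. The data spread more in endometrium, with a median range of 1.02 per gene, than in WBC, with 0.83. Cow numbers in the labels pair the tissues, since both arrays of a number come from 1 animal. The deviations of a cow's arrays from their group means had r of -0.24 to 0.11 (median 0.06). Figures were drawn with Python 3.11.15 and matplotlib 3.10.9. Alternatives were other normalizations and background correction, the authors' normalized values, a filter on dim probes, TREAT with a threshold of 0, the mean of a gene's probes, the cow or the slide row as a block, and leaving out each cow.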

Additional observations from a re-analysis of the deposited data

Results flagged for a closer look

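In 76 groups of 4 arrays, 4 held a value far from the other 3, and chance gives about 1 in 20. All were in WBC. SLC7A5 at base 3320 was 9.25 in SCE cow 846, and 8.79 to 8.85 in the other SCE cows. SLC3A2 at base 1979 was 10.94 in SCE cow 833, and 11.27 to 11.34 in the others. SLC7A7 at base 313 was 11.35 in healthy cow 841, and 11.52 to 11.53 in the others. SLC1A1 at base 3473 was 6.53 in healthy cow 877, and 6.84 to 6.85 in the others.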

How the results depend on the processing

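The number of members past adjusted TREAT between tissues (7 by at least 1 probe) was 5 with normalization within each tissue or with the mean of a gene's probes, 8 with the 75th percentile scaling, 9 with a TREAT threshold of 0 and 6 to 7 without any 1 cow. With the cow as a replicate block it was 6, SLC7A8 being lost. The endometrial SCE minus healthy difference of SLC7A5, a description, was -1.96, and -2.36 to -1.35 without 1 cow, -1.13 with the mean of its probes. In WBC the number of members past adjusted TREAT between SCE and healthy cows was 0 under every alternative run. Matching members by accession added 0 probes. The median tissue difference of all probes was 0.35 with normalization within each tissue, -0.39 with the 75th percentile, -0.11 with normexp and -0.15 with the authors' values.

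Tissue differences that changed sign with normalization within each tissue were SLC7A5 at base 3320 (0.45) and 3958 (0.41), SLC1A5 (0.53) and SLC38A2 at base 3593 (0.38), and with the mean of its probes SLC38A2 (0.22). None of these passed TREAT in the main setting. In WBC the SCE minus healthy differences that changed sign were, with the 75th percentile, SLC3A2 at base 702 (-0.068), SLC1A1 at base 1143 (-0.38) and 3473 (-0.21) and SLC38A2 at base 4670 (-0.019), with normexp SLC1A1 at base 1143 (-0.048) and 3473 (-0.088), with the authors' values SLC38A2 at base 4670 (-0.0034) and with the mean of its probes SLC7A7 (0.058). Without 1 cow the WBC differences ran from -0.30 to 0.090 for SLC7A5 at base 919, -0.031 to 0.13 for SLC3A2 at base 702, -0.35 to 0.13 for SLC7A1, -0.13 to 0.089 for SLC7A7 at base 1971, -0.047 to 0.30 for SLC7A8, -0.18 to 0.28 for SLC7A11 and -0.17 to 0.18 for SLC1A1 at base 3473. For SLC38A2 they ran from -0.22 to 0.16, -0.26 to 0.43, -0.31 to 0.42 and -0.63 to 0.32 at bases 3593, 4103, 4218 and 4670. The cause was not tested. Probes not well above background, as for SLC7A11, limit what can be read from a difference. The interaction of SCE and tissue contains the contrast that chose SLC7A5 and was read for the other 9 genes alone; 0 passed limma TREAT adjusted or unadjusted, and 0 adjusted under alternatives chosen after seeing the data.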
